A study of Homo sapiens with 6 samples.

Results

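miR-451a and the 5p and 3p arms of miR-486, miRNAs best known from red blood cells, were followed across 6 small-RNA libraries of exosomes. The vesicles came from HCT116, a human cell line established from a colorectal carcinoma. The entries hsa-miR-451a, hsa-miR-486-5p and hsa-miR-486-3p were taken from the deposited tables by exact name and are 3 of 2588 mature miRNA entries, of which 686 had at least 1 read in any library. Per the labels, 3 libraries came from cells given a control siRNA (siCTL 1, 2 and 3) and 3 from cells given an siRNA against PRDX3, a mitochondrial peroxiredoxin (siPRDX3 1, 2 and 3). Per the labels' protocols, all cells were microporated with siRNA and kept for 40 h in a medium with 10% fetal bovine serum, then held for 24 h in a medium with 10% nanoparticle-free serum before exosomes were isolated with a kit. The last sentence of the design text speaks of a different siRNA and of endothelial cells. The sample titles and the labelled cell line say otherwise, and were followed. A miRNA assay does not measure PRDX3 mRNA, so the knockdown could not be checked here. The labels do not say whether libraries that share an siRNA were made from separate cultures, and the p-values therefore cover library-to-library spread, possibly only technical.

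As background, a miRNA hairpin is usually cut by Dicer into a 5p and a 3p arm, of which one is mostly kept. miR-486 lies within the gene of the red cell membrane protein ankyrin, rises as red cells mature and is also made in muscle. miR-451a is transcribed together with miR-144 under the erythroid factor GATA1. It is exceptional in being matured by the slicing protein AGO2 instead of Dicer, so that a single arm accumulates. Both miRNAs are abundant in blood, plasma and serum, and neither is known as a main miRNA of colon epithelium.

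The hairpin of miR-451a, MIR451A, lies at chromosome 17, 28861369 to 28861440, on the minus strand (GENCODE v29 on GRCh38), in an exon of the long non-coding RNA AC024267.1. The hairpin of miR-451b lies opposite it on the plus strand, with 68 shared bases. By rising coordinate on the same strand, MIR144 comes next after a gap of 92 bases (28861533 to 28861618). MIR4732 comes after a further 36 bases (28861655 to 28861730). Along the minus strand itself the order is the reverse, MIR4732, MIR144 and MIR451A.

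RefSeq's miRNA table (GRCh38.p14) was searched for the members, for the other miRNAs of the cluster of miR-144 and miR-451a and for the miRNAs whose levels went most closely with the members. The search as run matched none of the 3 members (miR-451a and both arms of miR-486), so their sequences are not printed. This is not read as their absence from RefSeq's table. Of the 5 other miRNAs of the cluster, 4 matched. They are shown because their hairpins lie beside that of miR-451a, and their reads are set against those of miR-451a below. miR-326 and miR-4451 are shown because, outside the members, they kept the steadiest proportion to miR-486-5p. Each is written 5′ to 3′, and the capitals mark the seed (bases 2 to 8), the stretch that pairs with target mRNAs.
miR-144-5p: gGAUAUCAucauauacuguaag
miR-144-3p: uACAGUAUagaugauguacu
miR-4732-5p: uGUAGAGCagggagcaggaagcu
miR-4732-3p: gCCCUGACcuguccuguucug
miR-326: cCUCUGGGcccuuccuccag
miR-4451: uGGUAGAGcugaggaca
The 6 seeds differ from one another.

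The libraries were shallow. The siCTL libraries held 40146 to 124735 miRNA reads and the siPRDX3 libraries 70678 to 230946, as recovered from the steps of the deposited values. The authors' values are log2(x + 1) of a scaled read value x, called the level here. The sum of x was larger in siCTL than in siPRDX3 by 0.95 on the log2 scale, so a level and a share of the library can differ between groups by different amounts. miR-4451 alone took 11.8% to 76.9% of a library. Of the 80 miRNAs with enough reads to be tested, siCTL 1 lacked 30 and siCTL 2 lacked 23, while each of the other 4 libraries lacked 0 to 8, so both libraries stand apart and results are also given without them. Intervals of shares and ratios below are exact 95% Clopper-Pearson intervals and cover the counting error of reads only. Reads copied by PCR and lacking molecular identifiers do not count molecules independently. Intervals of fold changes are 95% confidence intervals from limma and reflect the spread between libraries.

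All 3 members had reads in every library and ranked in the same order in all 6, with miR-486-5p above miR-451a and miR-451a above miR-486-3p. Together they held 18675 of 644115 reads. miR-486-5p, the kept arm of its hairpin, ranked 10th among the 80 tested miRNAs by its mean share, and miR-451a ranked 15th. miR-486-3p, the minor arm, ranked 53rd of these 80. In the same annotation the miR-486 entry corresponds to 2 hairpins on opposite strands of chromosome 8. Both lie within the span of an intron of ANK1, which is on the minus strand, so only MIR486-1 shares its strand. MIR486-1 lies at 41660441 to 41660508 on the minus strand and MIR486-2 at 41660444 to 41660507 on the plus strand, an overlap of 64 bases. No source used here says how reads were divided between overlapping hairpins, so the arms of miR-486 are uncertain as separate counts.

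The siCTL libraries 1, 2 and 3 held 1750, 2262 and 3307 reads of miR-486-5p, and the siPRDX3 libraries 1, 2 and 3 held 1740, 1885 and 1040. Its level was 15.42, 15.46 and 14.69 in the former and 12.34, 13.71 and 12.77 in the latter. Every siCTL library lay above every siPRDX3 library. The mean level of the siCTL libraries was 15.19 ± 0.44, that of the siPRDX3 libraries 12.94 ± 0.70 (SD, n = 3 each). The log2 fold change, siPRDX3 minus siCTL, was −2.25 with SE 0.80 and a 95% interval of −4.13 to −0.38 (limma, unadjusted p = 0.0248, adjusted p = 0.397 over 80 miRNAs), which does not pass the threshold of 0.05.

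For miR-486-3p the control libraries held 60, 46 and 229 reads, the PRDX3 siRNA libraries 73, 76 and 51. Levels stood at 10.55, 9.85 and 10.84 with the control siRNA and at 7.77, 9.08 and 8.42 with the PRDX3 siRNA. The groups again did not overlap. The means were 10.41 ± 0.51 and 8.42 ± 0.65 (SD, n = 3 each), a log2 fold change of −1.99 with SE 1.40 and an interval of −5.28 to 1.31 (limma, adjusted p = 0.546).

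For miR-451a the reads numbered 431, 1569 and 1638 in the control libraries, then 696, 1458 and 364 in the PRDX3 siRNA libraries. Levels stood at 13.40, 14.94 and 13.67 with the control siRNA, against 11.02, 13.34 and 11.26 with the PRDX3 siRNA. Here the highest siPRDX3 library, siPRDX3 2, stood just under the lowest siCTL library, siCTL 1. The means were 14.002 ± 0.82 and 11.87 ± 1.28 (SD, n = 3 each), a log2 fold change of −2.13 with SE 1.09 and an interval of −4.69 to 0.43 (limma, adjusted p = 0.491).

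**Figure D1:**
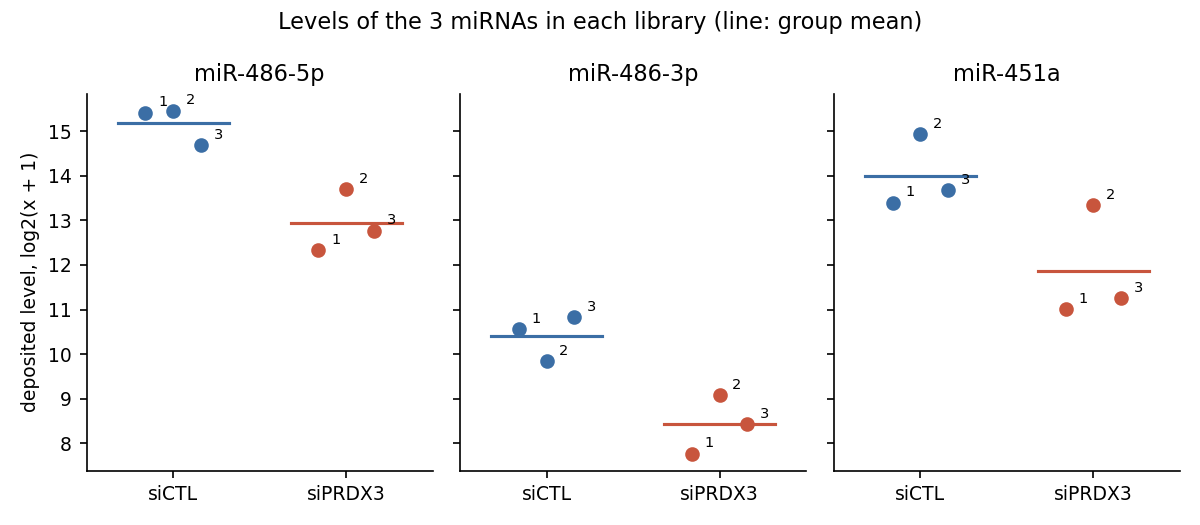
Deposited level, log2(x + 1), of both miR-486 arms and of miR-451a in the siCTL (blue) and siPRDX3 (red) libraries; points are libraries with their replicate number and lines are group means. In each panel the 3 siCTL points lie above the 3 siPRDX3 points, with the smallest gap for miR-451a (13.40 in siCTL 1 against 13.34 in siPRDX3 2).

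Among all 80 tested miRNAs, 7 had every siPRDX3 level below every siCTL level, which is 8.75%. The 3 members were among these 7, with let-7c-5p, miR-1290, miR-4695-3p and miR-6794-3p. Fold changes lay below 0 for 29 of the 80 (36.2%) and for all 3 members, and the median was 1.72 over the 80 and −2.13 over the members. limma called 0 of the 80 (0.0%) at an adjusted p under 0.05 (6, or 7.5%, at an unadjusted p under 0.05, of which miR-486-5p was 1), and limma-voom on the recovered reads called 1 (1.25%), which was none of the members. Without siCTL 3, limma called 20 of the 80 (25.0%), of which 19 were higher in siPRDX3 and again none were members. For the members this limma fit gave adjusted p-values of 0.0941 for miR-486-5p, 0.327 for miR-486-3p and 0.212 for miR-451a. The controls left in it, siCTL 1 and siCTL 2, lacked 30 and 23 of the 80, and the part of these zeros in the calls was not tested.

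The wide range of the fold changes came with wide spreads between libraries of a group. On the deposited scale the SD within groups had a median of 2.71 over the 80 miRNAs, and of 1.49 over the 42 that had reads in all 6 libraries. miR-486-5p had 0.58, the 2nd smallest of the 80, miR-486-3p had 0.59, the 3rd smallest, and miR-451a had 1.07, the 13th smallest. By its lowest library miR-486-5p ranked 4th of the 80, with 1040 reads. Among the 42 miRNAs with reads everywhere, the median fold change was −0.47, with 23 below 0 and 19 above. Of these 42, 5 had a lower fold change than miR-486-5p, 6 a lower one than miR-451a and 7 a lower one than miR-486-3p. Fitted on these 42 alone, a setting chosen after the data were seen, limma gave adjusted p-values of 0.348, 0.427 and 0.469 for miR-486-5p, miR-451a and miR-486-3p.

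**Figure D2:**
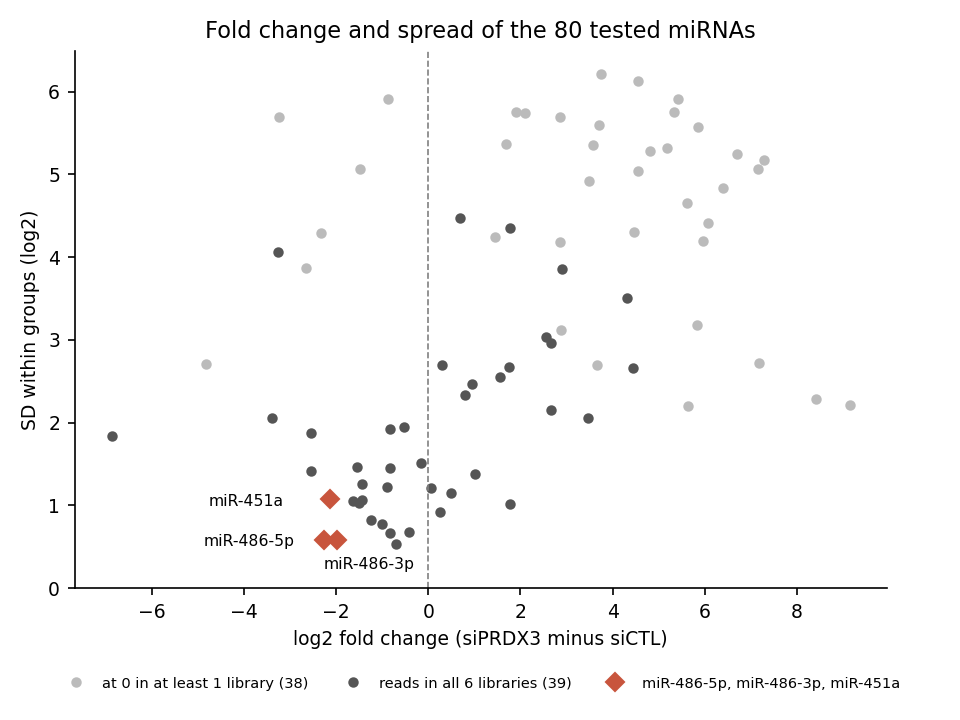
Log2 fold change (horizontal axis) and SD within groups on the log2 scale (vertical axis) of the 80 tested miRNAs; grey points were at 0 in at least 1 library, dark points had reads in all 6, and red diamonds are the 3 members. The members sit at the lower left, with fold changes from −2.25 to −1.99 and SDs from 0.58 to 1.07, while most miRNAs with positive fold changes have larger SDs.

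The share of the library sum does not use the authors' scaling between libraries, and on it the difference was smaller. miR-486-5p took 4.36% of siCTL 1 (interval 4.16 to 4.56), 2.79% of siCTL 2 and 2.65% of siCTL 3, against 0.754%, 1.95% and 1.47% of the siPRDX3 libraries in the same order. These groups did not overlap, and the means were 3.27% ± 0.947 and 1.39% ± 0.602 (SD, n = 3 each), a ratio of 2.35. Of the 80 tested miRNAs, 2 had lower shares in every siPRDX3 library than in any siCTL library (2.5%), namely miR-486-5p and miR-4695-3p.

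The minor arm and miR-451a overlapped between the groups on this scale. miR-486-3p took 0.149%, 0.0568% and 0.184% of siCTL 1, 2 and 3 and 0.0316%, 0.0787% and 0.0721% of siPRDX3 1, 2 and 3, so that siCTL 2 lay below 2 of the siPRDX3 libraries. miR-451a took 1.07%, 1.94% and 1.31% of siCTL and 0.301%, 1.51% and 0.515% of siPRDX3. Its share in siPRDX3 2 (interval 1.43 to 1.59) lay above those in siCTL 1 (0.975 to 1.18) and siCTL 3 (1.25 to 1.38). The 3 members together took 5.58%, 4.79% and 4.15% of siCTL 1, 2 and 3 and 1.09%, 3.54% and 2.06% of siPRDX3 1, 2 and 3. Single libraries moved the share differences of miR-486-3p and miR-451a by over 1.5 times. The difference in mean share (siPRDX3 minus siCTL) of miR-486-3p was −0.0691 percentage points, −0.0424 without siCTL 3 and −0.106 without siCTL 2. That of miR-451a was −0.667 percentage points, −0.418 without siCTL 2, −0.430 without siPRDX3 1 and −1.03 without siPRDX3 2. With library totals as the scaling, the log2 fold changes were −1.30 (SE 0.81), −1.04 (SE 1.48) and −1.18 (SE 1.04) for miR-486-5p, its 3p arm and miR-451a (limma, adjusted p = 0.433, 0.734 and 0.547). The median over the 80 miRNAs was 2.57 on that scale, and 21 of the 80 (26.2%) lay below 0.

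**Figure D3:**
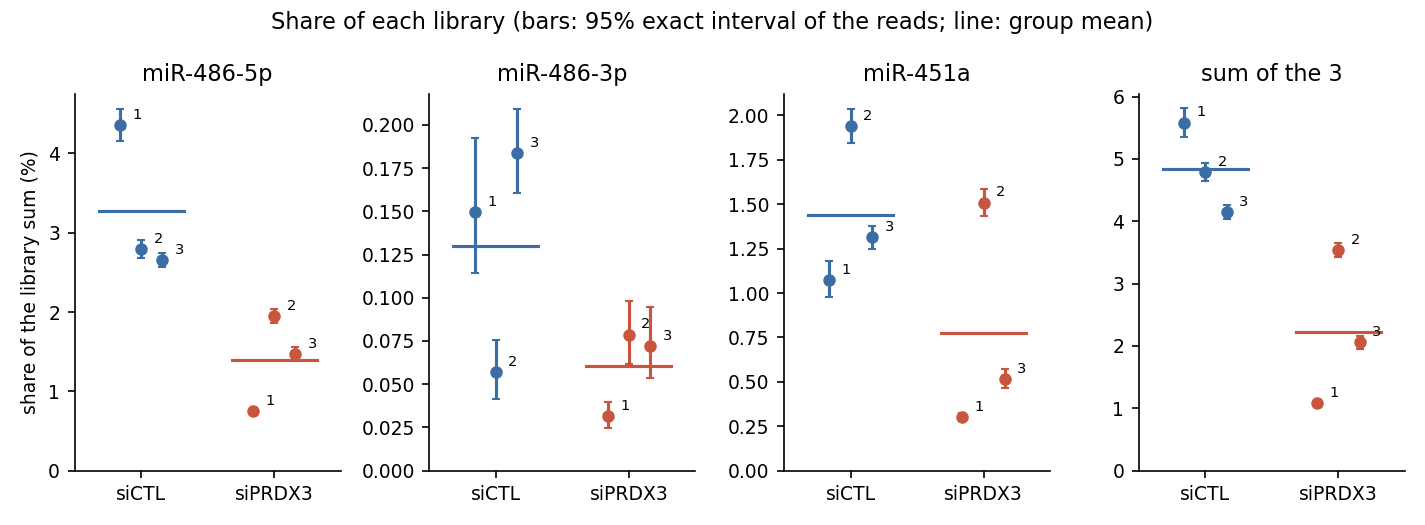
Share of each library's sum (percent, each panel on its own axis from 0) taken by each member and by their sum; points are libraries with replicate numbers, bars are 95% exact intervals of the recovered reads and lines are group means. The siCTL and siPRDX3 points are separate for miR-486-5p and for the sum, and overlap for miR-486-3p and miR-451a.

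Which member separated the groups depended on miR-4451, the dominant entry. It held 49.4%, 76.9% and 16.4% of the siCTL libraries, then 11.8%, 47.7% and 39.95% of the siPRDX3 libraries, and its part in these results was not tested beyond leaving it out. As shares of the reads without miR-4451, miR-486-5p took 8.62%, 12.1% and 3.17% of siCTL and 0.855%, 3.73% and 2.45% of siPRDX3, and the groups overlapped through siCTL 3. miR-486-3p took 0.295%, 0.246% and 0.219% of siCTL and 0.0359%, 0.150% and 0.120% of siPRDX3, and its groups separated. miR-451a overlapped on this scale too, from 1.57% in siCTL 3 to 8.38% in siCTL 2 and from 0.342% in siPRDX3 1 to 2.89% in siPRDX3 2. The sum of the 3 members also overlapped here, with 4.96% in siCTL 3 and 6.76% in siPRDX3 2. The siPRDX3 1 library had the lowest share of each member on both denominators, the most reads and the lowest share of miR-4451.

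All 3 log2 fold changes stayed below 0 under each of the 20 alternative settings, and no adjusted p passed 0.05 for a member. They ran from −2.99 to −1.30 for miR-486-5p, from −2.72 to −1.04 for miR-486-3p and from −2.87 to −1.18 for miR-451a. Upper-quartile scaling gave the lower end and library totals the upper end for each. Only settings that rescaled the libraries could have reversed a sign, because the deposited levels of each member did not overlap between the groups. Without siCTL 1 and siCTL 2, which leaves siCTL 3 as the only control, the log2 fold changes were −1.75, −2.41 and −1.80 for miR-486-5p, its 3p arm and miR-451a (limma, adjusted p = 0.797 for each), and the median over the 80 miRNAs was −1.15. In that fit the lone control library is assumed to vary like the siPRDX3 libraries. With let-7b-5p as the reference, the miRNA with the smallest SD within groups, they were −1.54, −1.28 and −1.42 (limma, adjusted p = 0.475, 0.634 and 0.511).

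**Figure D4:**
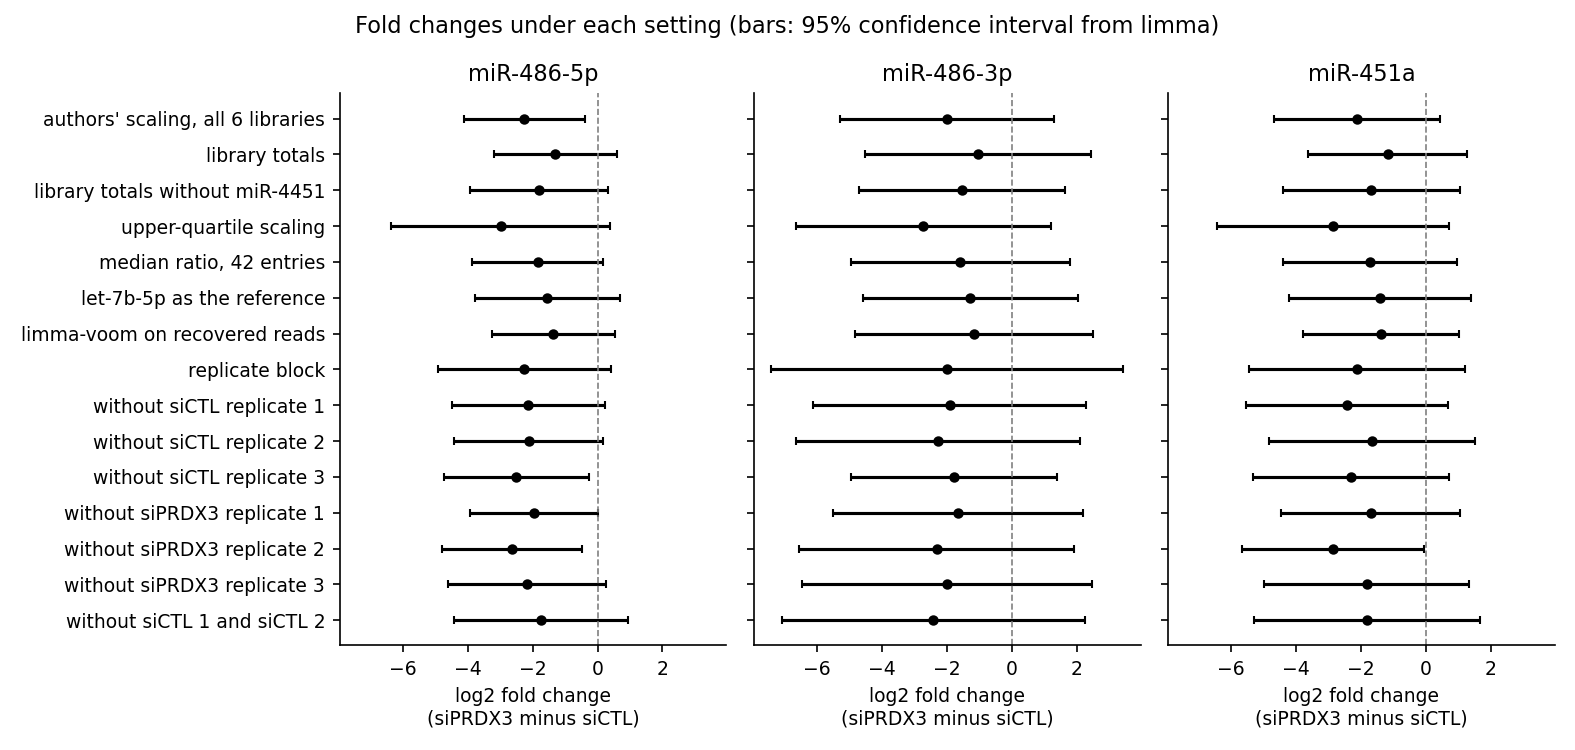
Log2 fold change (siPRDX3 minus siCTL, horizontal axis) of each member under 15 settings of the scaling, the test and the libraries used; points are estimates and bars are 95% confidence intervals from limma. Every point lies left of 0, and most intervals reach past 0.

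Ratios within a library do not depend on any scaling. miR-486-5p exceeded miR-486-3p 29.2-fold, 49.2-fold and 14.4-fold over the siCTL libraries 1, 2 and 3. Over the siPRDX3 libraries it did so 23.8-fold, 24.8-fold and 20.4-fold. The siPRDX3 libraries lay close together and the siCTL libraries on both sides of them. The interval of siCTL 3 (12.6 to 16.6) and that of siCTL 2 (36.7 to 67.4) do not meet, so these 2 libraries of 1 group differed beyond the counting error of independent reads. Reads copied by PCR are not independent, so this need not hold for molecules. The log2 ratio averaged 4.78 ± 0.89 over the siCTL libraries and 4.52 ± 0.15 over the siPRDX3 libraries (SD, n = 3 each). The difference of −0.26 was smaller than the spread in siCTL (exact permutation test, two-sided, p = 0.7, adjusted p = 0.9 over 2 ratios, where 0.1 is the smallest p possible).

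The ratio of miR-451a to miR-486-5p compares the 2 erythroid hairpins. It stood at 0.246, 0.694 and 0.495 for siCTL 1 to 3, and at 0.400, 0.774 and 0.350 for siPRDX3 1 to 3. The highest ratio in each group came from replicate 2, but the labels do not say whether replicate numbers pair the libraries. Its log2 averaged −1.19 ± 0.76 over the siCTL libraries and −1.07 ± 0.61 over the siPRDX3 libraries (SD, n = 3 each), a difference of 0.12 (exact permutation test, two-sided, p = 0.9, adjusted p = 0.9). The highest and lowest library differed 3.14-fold for this ratio and 3.40-fold for the ratio of the miR-486 arms. Both ratios thus varied more within groups than between them.

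**Figure D5:**
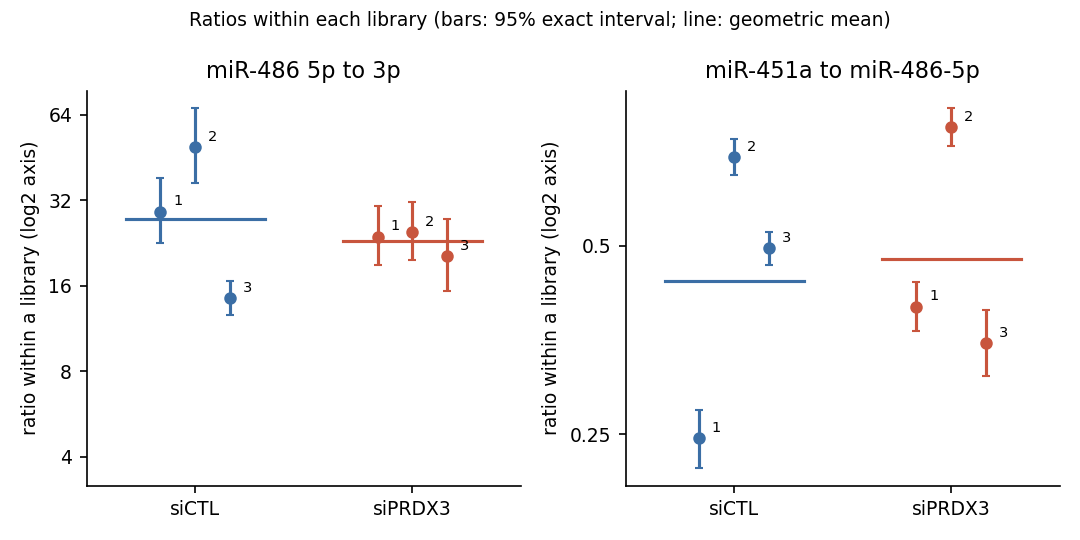
Ratio of miR-486-5p to miR-486-3p (left) and of miR-451a to miR-486-5p (right) within each library, on log2 axes; points are libraries with replicate numbers, bars are 95% exact intervals from the reads and lines are geometric means. The siCTL and siPRDX3 points overlap in both panels, with siCTL spread from 14.4 to 49.2 on the left.

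miR-486 was the only hairpin with both arms in every library, among 20 hairpins with at least 10 reads on each arm over all libraries. With 11984 reads of 5p and 535 of 3p, it had the most reads on its major arm after let-7b (64099 and 15 reads), miR-423 (23126 and 4071) and miR-3184 (23221 of 3p and 2705 of 5p). miR-423 and miR-3184 lie on opposite strands of 1 locus, and their reads may be shared. The rule for naming hairpins by the spread of the arm ratio asked for 10 reads on each arm in every library, and miR-486 alone met it, so no other arm ratio is compared.

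The entries that went most closely with a member were sought by the SD over the 6 libraries of the difference in log2 level, which is small where 2 miRNAs keep a steady proportion. For miR-486-5p the closest of 79 other tested miRNAs were miR-486-3p (SD 0.59) and miR-451a (0.62), followed by miR-326 (0.75), miR-4451 (0.86) and miR-6794-3p (0.92). The median SD was 2.003 over the 41 other miRNAs with reads in all 6 libraries. For miR-486-3p the closest were miR-486-5p (0.59), miR-4497 (0.87), miR-451a (0.95), miR-148a-3p (0.97) and let-7b-5p (1.06), beside a median of 1.88. For miR-451a they were miR-486-5p (0.62), miR-4451 (0.87), miR-486-3p (0.95), let-7c-5p (0.98) and miR-3652 (1.12), beside a median of 2.03. The members thus stood among one another's 3 closest entries. miR-326 had only 13 to 26 reads per library and miR-4497 only 6 to 37, so counting error adds to their SDs. miR-148a-3p, by contrast, had 323 to 2985 reads.

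Other miRNAs of the cluster of miR-144 and miR-451a had fewer reads. Against 6156 reads of miR-451a, miR-144-5p had 7 reads in all, of which siCTL 2 held 2, siCTL 3 held 1 and siPRDX3 1 held 4. miR-144-3p, miR-451b and miR-4732-5p were listed at 0 in all 6 libraries. miR-4732-3p had 233 reads in siCTL 3, beside 1638 of miR-451a and 229 of miR-486-3p there, 1 read in siPRDX3 2 and 0 in the other libraries. miRNAs of wide use, such as miR-17-5p, miR-20a-5p and miR-15a-5p, were also listed at 0 in these tables, and no source states the mapping or filters behind a 0, so a listed 0 is not read as absence.

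The remaining list of miRNAs known from red cells and their precursors was uneven, with most of its reads on miR-92a-3p (1803 in all) and miR-25-3p (1618). With the cluster it held 12 miRNAs, of which 6 had reads, 2 were tested and 0 passed. miR-16-5p, which is plentiful in mature red cells, had 2 reads, both in siCTL 3. The same doubt about mapping and filters applies to this low count. miR-92a-3p, of the miR-17 to miR-92 cluster, ran from 31 to 331 reads over the siCTL libraries and from 158 to 943 over the siPRDX3 libraries, with a log2 fold change of 0.26 and an SE of 1.33 (limma, adjusted p = 0.881). miR-25-3p, which shares its seed family with miR-92a-3p, was seen in siCTL 3 alone among the controls (263 reads) and in all siPRDX3 libraries (22 to 887), with a log2 fold change of 6.39 and an SE of 3.34 (limma, adjusted p = 0.491). miR-185-5p had 290 of its 314 reads in siPRDX3 1. The list took 0.0420% to 0.673% of siCTL libraries and 0.270% to 0.920% of siPRDX3 libraries, less than the 3 members in all 6 libraries.

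The labelled cell type was checked against miRNAs of intestinal epithelium and colorectal carcinoma. Of 14 such miRNAs, 11 had reads and 3 were listed at 0, namely miR-429, miR-17-5p and miR-20a-5p. Reads in all numbered 4825 for miR-182-5p, 939 for miR-183-5p, 899 for miR-21-5p, 894 for miR-200c-3p, 582 for miR-215-5p and 413 for miR-200a-3p. A further 238 were of miR-192-5p, 223 of miR-200b-3p, 139 of miR-31-5p, 15 of miR-141-3p and 3 of miR-194-5p. Many lay in few libraries, with 1727 and 2822 reads of miR-182-5p in siCTL 3 and siPRDX3 1 and 580 of miR-215-5p in siCTL 3. The 14 together took 0.107%, 0.117% and 2.80% of siCTL 1, 2 and 3 and 2.06%, 0.201% and 0.834% of siPRDX3 1, 2 and 3. The 3 erythroid members took a larger share than these 14 together in 5 of the 6 libraries, all but siPRDX3 1. miR-122-5p, made mainly in the liver and also common in serum, ran from 48 to 6670 reads over the controls and from 2371 to 9313 over the PRDX3 siRNA libraries. It did not follow the members in siCTL 2, where it had 48 reads and miR-486-5p 2262. In bulk exosomal RNA, fewer vesicles that carry a miRNA and less of it per vesicle cannot be told apart. The source of the members (the cells or the serum of the medium) was not tested.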

How the data were processed

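Small-RNA sequencing was done on exosomal RNA of 6 HCT116 libraries, 3 siCTL and 3 siPRDX3, grouped by title. The authors deposited 1 table per library with log2 values of 2588 mature miRNA entries. Bowtie2 and bedtools 2.25.0 appear in the submitters' processing notes without a stated role. Genome build, read filters, strand handling, treatment of multiply mapped reads and scaling between libraries: not given in the sources used here. Each could move the arms of miR-486 or the levels.

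Values were read as log2(x + 1). In each library x lay on whole multiples of 1 read (100% of values up to 100 reads within 0.1 read), and reads were recovered from these steps; those of abundant miRNAs are approximate. Levels were tested with limma 3.58.1 in R 4.3.3 (mean-variance trend, no covariates, two-sided, Benjamini-Hochberg adjusted, threshold 0.05), after a check on simulated data. That check gave every entry the same SD, below the median of 2.71 seen here, and modelled no values at 0. It therefore does not show how limma behaves on these data. Tests were run on the 80 miRNAs with 15 or more reads in all that reached a CPM of 113 (10 reads in a library of median size) in 3 or more libraries. Ratios were compared by exact permutation of the 6 libraries. Alternatives covered scaling, filter, pseudocount, limma-voom, the replicate block and left-out libraries.

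The members, lists and tests were chosen with earlier results of these data known. Named were the 3 members, for each the 5 tested miRNAs with the smallest SD of the log2 difference, list members with at least 100 reads or whose absence is stated, and hairpins by arm ratio. The let-7 list was an exception, since most of its members were given only as a summed share. Other miRNAs were named after their values were seen.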

Additional observations from a re-analysis of the deposited data

How the results depend on the processing

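The 3 log2 fold changes kept their direction and missed an adjusted p of 0.05 in limma in each of 20 alternatives, of which 3 were chosen after the data were seen (median-ratio scaling, let-7b-5p as the reference, and the 42 miRNAs with reads everywhere). Only the alternatives that rescaled the libraries, limma-voom among them, could have reversed the direction. The count of called miRNAs was 0, and 1 with limma-voom; leaving out each library gave 0 to 20, the 20 without siCTL 3. Without miR-4451 in the library sum, the share differences (siPRDX3 minus siCTL, percentage points) moved from −1.88 to −5.61 for miR-486-5p, from −0.0691 to −0.151 for miR-486-3p, from −0.667 to −2.66 for miR-451a and from −2.61 to −8.43 for their sum, because the denominator shrinks most where miR-4451 is high. Leaving out each library gave −2.18 to −1.33, −0.106 to −0.0424, −1.03 to −0.418 and −3.27 to −2.04 percentage points in the same order. Leaving out each library gave −0.72 to 0.16 for the difference in the log2 ratio of the miR-486 arms, above 0 without siCTL 2, and −0.30 to 0.45 for that of miR-451a to miR-486-5p, below 0 without siCTL 1 or siPRDX3 2.

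The labels do not say whether replicate numbers pair the libraries. Same-numbered deviations correlated at −0.24, 0.18 and 0.14 for numbers 1, 2 and 3. Those of unlike numbers ran from −0.36 to 0.33, so these correlations cannot settle it. With the replicate block the fold changes stayed at −2.25 for miR-486-5p, −1.99 for its 3p arm and −2.13 for miR-451a (limma, adjusted p = 0.466, 0.691 and 0.547), 0 miRNAs were called, and the ratio differences stayed at −0.26 and 0.12. Depth limits miR-486-3p most, with 46 reads in its lowest library.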

Other observations

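miRNAs of other cell types that can hold miR-486 or accompany blood were sparse and came mostly from single libraries. Of 7 muscle miRNAs, 2 had reads: miR-206 had 62 reads in siCTL 1 and 3 in siPRDX3 1, and miR-1-3p had 1 read. miR-133a-3p, miR-133b and miR-499a-5p, which define striated muscle with miR-1-3p, were listed at 0. Of 9 leukocyte and platelet miRNAs, 4 had reads. miR-146a-5p had 287 reads and miR-126-3p 154 in siPRDX3 3, where the list took 0.624% of the library, against 0% to 0.0208% in the other 5 libraries. miR-223-3p, miR-142-3p and miR-150-5p, which are abundant in myeloid cells, platelets and lymphocytes, were listed at 0 in all 6 libraries.

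Within the 9 let-7 miRNAs, a family found in most differentiated cells and in serum, the summed share was 15.7%, 9.12% and 21.7% over the siCTL libraries 1, 2 and 3, and 27.2%, 13.5% and 17.3% over the siPRDX3 libraries 1, 2 and 3. siPRDX3 1, the library with the lowest shares of both miR-486 arms and of miR-451a, had the highest let-7 share.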
